A study of Arabidopsis thaliana with 12 samples.

Results

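Cytochrome P450 genes were examined in shoots of 18-d-old Arabidopsis seedlings of 4 genotypes, all in the Col-0 background. The genotypes were brm-1, which lacks the chromatin remodeling ATPase BRAHMA (BRM), ga1-3, which carries a defective copy of GA1 (the enzyme of the first committed step of gibberellin synthesis), the ga1-3/brm-1 double mutant and the wild type. Each genotype was measured in 3 biological replicates on Affymetrix ATH1 arrays, so 12 arrays entered the comparisons. Homozygous brm-1 plants are sterile and were picked by genotyping from segregating progeny, the ga1-3 allele had been introgressed into Col-0, and seeds of the ga1-3 lines were soaked in gibberellin before sowing. No soak is stated for the other lines. Between lines with and without ga1-3, the allele and the soak cannot be told apart. A gene counted as a member if its symbol or a synonym had the form of a P450 name, such as CYP71B6, and its probe set matched no other gene. BAS1 was left out. This gave 36 genes among 16764 probe sets, out of 239 P450 genes that the TAIR10.1 annotation lists by such a name.

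P450 enzymes are heme proteins that insert an oxygen atom into small molecules, with electrons that a reductase passes on from NADPH. Their names give the family by a number, the subfamily by a letter and then the gene. In plants they make and inactivate hormones, and they build defence compounds, lignin precursors, sterols and the waxes and cutin of the surface. CYP71B is one of the large subfamilies of Arabidopsis and many of its members lie side by side in the genome. For most of them the substrate is not known.

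The members fell into 2 sets that cannot be read in the same way. For 14 genes the platform's own annotation gave the name: 12 of the CYP71B subfamily, together with CYP78A9 and CYP84A4. These 14 were tested and counted. The other 22 could be named only through the study's lists of changed genes, which hold nothing but genes the study had already called, so they are described by their levels and differences without a test. A further 4 P450 probe sets matched more than 1 gene (among them the pairs CYP71B19 with CYP71B20 and CYP79F1 with CYP79F2) and were left out.

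Signals are given on the log2 scale after GC-RMA normalization, so a difference of 1 is a 2-fold change in signal. Near background means a genotype mean under 4.58, which is the 25th percentile of all signals in the table. A gene was called changed when limma, fitted on all probe sets and all 12 arrays, gave a Benjamini-Hochberg adjusted p under 0.05 and the fold change was over 1.5. Values with ± are SD over 3 arrays for signals and standard errors for log2 fold changes. The number of arrays limits the precision, and levels are compared only within a gene, since different probe sets respond differently.

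BRM itself was measured first as a check of the labels. BRM was named only through the study's lists, so it could be found only because it had been called changed. Its signal was 2.89 ± 0.11 in brm-1, 8.14 ± 0.19 in ga1-3, 2.88 ± 0.14 in the double mutant and 7.88 ± 0.06 in the wild type, so it was low in the lines labelled brm-1 and high in the others. The GA1 transcript was not analysed here. Of the shoot markers listed for a check of the tissue, 3 of 6 were named, and their means lay between 11.85 and 14.46. They were not level across the genotypes. CA1, a carbonic anhydrase, averaged 11.85 in brm-1, 12.73 in ga1-3, 12.35 in the double mutant and 12.97 in the wild type, a log2 difference of -1.12 in brm-1. LHCA1, a light-harvesting protein, differed from the wild type by -0.64 in the double mutant and -0.17 in brm-1. Both were named through the study's lists and get no test. RCA, named by the platform annotation, differed by -0.40 in brm-1 (limma, adjusted p = 0.0128), under the fold threshold. The part of these markers in the results was not tested. No root marker was named, and 2 of 6 flower markers were, PI with means of 5.07 to 6.33 and SEP3 with means of 5.12 (ga1-3) to 8.26 (brm-1). PI and SEP3 were named only through the study's lists of changed genes and get no test. Their choice thus rests on their values in these arrays. In these whole shoots, fewer cells of a type and less RNA per cell cannot be told apart. Single arrays were unlike their group. After removal of genotype means, brm-1 replicate 3 scored -37.8 on the first principal component, against 20.0 and 17.8 for the other brm-1 arrays and -6.99 to 9.80 for the arrays of the other genotypes. The median absolute deviation from the genotype mean was largest for ga1-3 replicate 3, at 0.128. It was 0.119 for brm-1 replicate 3 and 0.0812 to 0.0987 for the remaining arrays. Counts of changed genes in the single mutants are therefore also given without each of these replicates.

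In brm-1, 5 of the 14 genes fell (35.7%) and 0 rose, while over all probe sets 7.58% fell and 7.09% rose. CYP71B36 and CYP78A9 had the lowest adjusted p, followed by CYP71B26, CYP71B29 and CYP71B24. The 14 genes had a median log2 fold change of -0.15, against 0.01 over all probe sets. For 7 of the 14 genes the 3 brm-1 arrays did not overlap the wild-type arrays, against 39.4% of all probe sets. Without brm-1 replicate 3 the same 5 genes fell and CYP71B23 rose. In that fit 13.9% of all probe sets were called, against 14.7% with all arrays. Without ga1-3 replicate 3 CYP71B22 fell as well and CYP71B23 rose, and 14.7% of all probe sets were called.

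CYP71B36 had log2 signals of 3.33, 3.30 and 3.07 on the brm-1 arrays, against 5.34, 5.52 and 5.12 on the wild-type arrays. The 3 brm-1 arrays lay near background and well below every wild-type array. The log2 fold change was -2.09 ± 0.22 (limma, adjusted p = 0.000136), a size that rests on dim signals in brm-1. CYP71B26 gave 8.67, 8.81 and 9.01 in brm-1 and 9.78, 9.44 and 9.68 in the wild type. Its groups did not overlap, and the fall was smaller, with -0.81 ± 0.17 (limma, adjusted p = 0.00801).

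CYP71B29 had signals of 4.05, 5.56 and 5.46 in brm-1, against 6.73, 6.45 and 6.42 in the wild type. The first brm-1 array was much lower than the other two, yet all 3 lay under the wild type. The log2 fold change was -1.51 ± 0.34 (limma, adjusted p = 0.0108), and without that array it was -1.02. The call was lost when only brm-1 and wild-type arrays were fitted (limma, adjusted p = 0.0538).

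CYP71B24 varied even more among the brm-1 arrays, with 5.50, 4.999 and 3.93, against 5.75, 6.06 and 5.90 in the wild type. The brm-1 array that stood apart gave the lowest value, and the highest brm-1 value came close to the lowest of the wild type. The log2 fold change was -1.10 ± 0.32 (limma, adjusted p = 0.0338). It was -0.66 without brm-1 replicate 3 (limma, adjusted p = 0.0429), and the call was lost without brm-1 replicate 2 or without any single wild-type array (limma, adjusted p = 0.0548 to 0.101). It was also lost when only brm-1 and wild-type arrays were fitted (limma, adjusted p = 0.109).

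CYP78A9, a member of the CYP78A group known to promote the growth of fruits and seeds, had 1.85, 1.84 and 1.76 in brm-1, against 3.41, 3.43 and 3.31 in the wild type. The separation was clean, with a log2 fold change of -1.56 ± 0.13 (limma, adjusted p = 4.57e-05). All 4 genotypes were near background for this probe set, so the size of the change rests on dim signals. Of the flower markers, SEP3 averaged 8.26 in brm-1, 5.12 in ga1-3, 7.62 in the double mutant and 7.22 in the wild type. PI averaged 6.33, 6.04, 5.07 and 5.998 in the same order. By their means both were above the wild type in brm-1, while SEP3 was below it in ga1-3 and PI in the double mutant. The log2 differences in brm-1, ga1-3 and the double mutant were 1.04, -2.10 and 0.40 for SEP3. For PI they were 0.33, 0.04 and -0.93. Both markers were named through the study's lists, so these differences get no test. CYP78A9 was below the wild type in all of these lines. The part of the flower markers in the result was not tested.

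CYP71B22 and CYP71B23 came close to the threshold in brm-1 without passing it. CYP71B22 had 8.33, 8.15 and 7.34 in brm-1, against 8.54, 9.54 and 8.99 in the wild type, a log2 fold change of -1.08 ± 0.38 (limma, adjusted p = 0.0676). CYP71B23 had 8.70, 8.62 and 8.25 in brm-1, against 7.57, 7.9995 and 8.15 in the wild type, a log2 fold change of 0.61 ± 0.21 (limma, adjusted p = 0.0594). For neither gene did the arrays overlap. CYP71B22 was called without ga1-3 replicate 3 (limma, adjusted p = 0.0374), whose absence changes only the pooled spread, and CYP71B23 without ga1-3 replicate 2, ga1-3 replicate 3 or brm-1 replicate 3 (limma, adjusted p = 0.0393, 0.0374 and 0.0419).

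**Figure D1:**
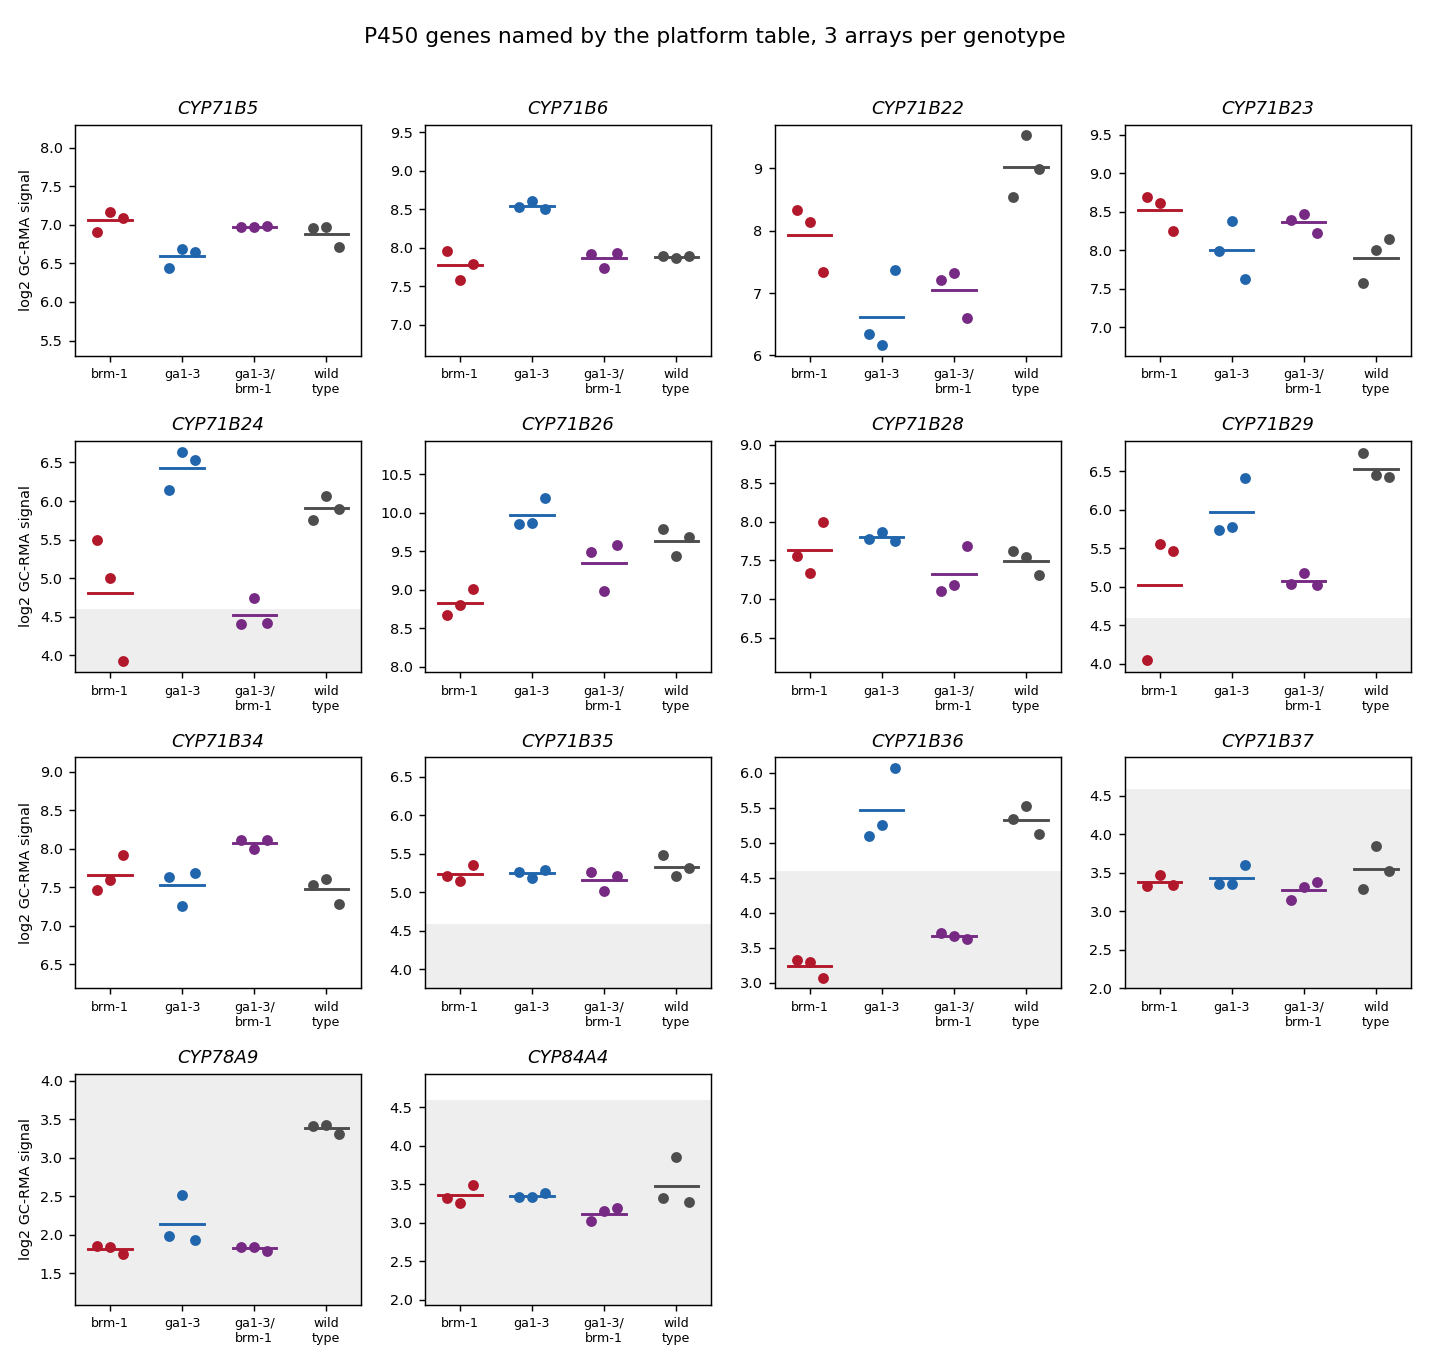
Log2 GC-RMA signal (vertical axes, whose limits differ between panels) of the 14 P450 genes named by the platform annotation in the 4 genotypes, mutants to the left of wild type. Points are single arrays in the order of their replicate numbers, horizontal lines are means of 3 arrays, and grey marks signals under 4.58. CYP71B36 lies in the grey area in both lines with brm-1, CYP71B22 is lowest in ga1-3, and CYP71B6 is highest in ga1-3.

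In ga1-3, 2 of the 14 genes fell (14.3%) and 1 rose (7.14%), against 4.74% falling and 4.06% rising over all probe sets. CYP71B22 and CYP78A9 fell and CYP71B6 rose. The median log2 fold change was -0.02, against 0.02 over all probe sets. The ga1-3 and wild-type arrays did not overlap for 8 of the 14 genes, against 33.9% of all probe sets. The same 3 genes were called with any of the 12 arrays left out. Over all probe sets 8.79% were called with all arrays, 9.83% without brm-1 replicate 3 and 9.52% without ga1-3 replicate 3.

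CYP71B22 had 6.34, 6.17 and 7.36 in ga1-3, against 8.54, 9.54 and 8.99 in the wild type. The third ga1-3 array was higher than the other two and still under every wild-type array. The log2 fold change of -2.40 ± 0.38, a 5.27-fold lower signal, was the largest in absolute size among the 14 genes in any of the 3 mutants (limma, adjusted p = 0.00284). CYP78A9 had 1.98, 2.52 and 1.93 in ga1-3 and 3.41, 3.43 and 3.31 in the wild type, with a log2 fold change of -1.24 ± 0.13 at signals near background (limma, adjusted p = 0.000366).

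CYP71B6 acts on indole-3-acetonitrile, an intermediate of indole defence compounds. Its signals were 8.52, 8.61 and 8.50 in ga1-3, against 7.89, 7.86 and 7.88 in the wild type. The replicates of both groups lay close together and far from the other group. The log2 fold change was 0.66 ± 0.10, a 1.58-fold higher signal (limma, adjusted p = 0.00215).

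In ga1-3/brm-1, 5 of the 14 genes fell (35.7%) and 1 rose (7.14%), against 11.6% falling and 12% rising over all probe sets. CYP71B36, CYP78A9, CYP71B29 and CYP71B24 fell, as in brm-1, and CYP71B22 fell, as in ga1-3. CYP71B34 rose. CYP71B26, which fell in brm-1, had -0.29 ± 0.17 here and did not pass (limma, adjusted p = 0.224). The median log2 fold change was -0.28, against -0.02 over all probe sets, and the arrays did not overlap for 8 of the 14 genes, against 53.3% of all probe sets. The double mutant shares its wild-type arrays with both single mutants, so these calls are not independent of those above.

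CYP71B36 had 3.70, 3.67 and 3.62 in ga1-3/brm-1, again near background on each array, with a log2 fold change against the wild type of -1.66 ± 0.22 (limma, adjusted p = 0.000237). CYP71B22 had 7.22, 7.32 and 6.60, a log2 fold change of -1.97 ± 0.38 (limma, adjusted p = 0.00243). CYP71B24, with 4.40, 4.73 and 4.42, had -1.39 ± 0.32 (limma, adjusted p = 0.00661). The double-mutant means of CYP71B24 (4.52) and CYP71B36 (3.66) were both near background, so the sizes of these falls rest on dim signals.

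CYP71B29 had 5.03, 5.17 and 5.02 in ga1-3/brm-1, a log2 fold change of -1.46 ± 0.34 (limma, adjusted p = 0.0074). CYP78A9 had 1.85, 1.84 and 1.79, a log2 fold change of -1.55 ± 0.13 (limma, adjusted p = 2.21e-05). For CYP78A9 the double mutant and brm-1 differed by 0.01 on the log2 scale, with a 95% confidence interval of -0.29 to 0.31, at signals near background.

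CYP71B34 had 8.11, 7.99 and 8.11 in ga1-3/brm-1, against 7.53, 7.61 and 7.28 in the wild type. All double-mutant arrays were above all wild-type arrays. The log2 fold change of 0.60 ± 0.15 (limma, adjusted p = 0.00937) was just past the fold threshold, and without wild-type replicate 3, ga1-3/brm-1 replicate 1 or ga1-3/brm-1 replicate 3 it was 0.50, 0.58 and 0.58, under that threshold.

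**Figure D2:**
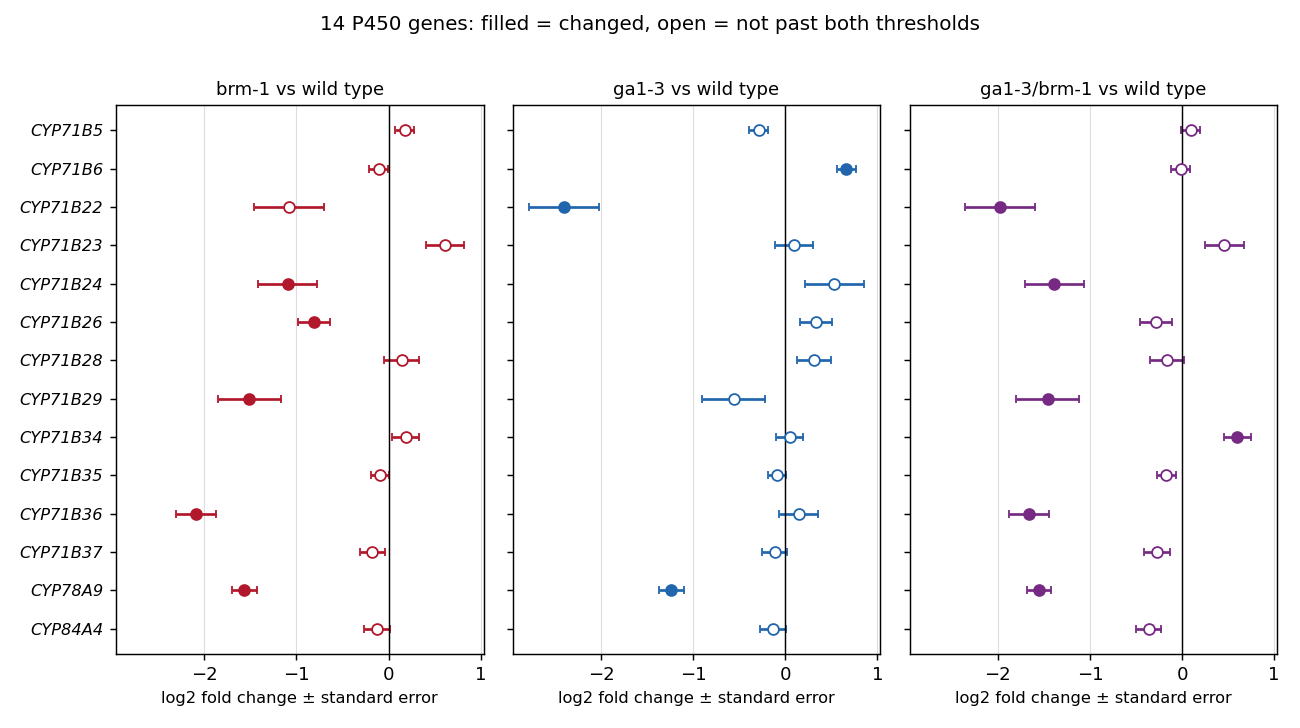
Log2 fold change (horizontal axes, with standard errors) of the 14 P450 genes in each of the 3 mutants against the wild type, with n = 3 arrays per genotype. Filled points passed both thresholds. Filled points lie left of 0 for 2 genes in ga1-3 and for 5 genes in each line with brm-1, and right of 0 for CYP71B6 in ga1-3 and CYP71B34 in the double mutant.

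Set against ga1-3, the double mutant shows what the brm-1 allele adds in gibberellin-deficient plants. Here 4 of the 14 genes fell (28.6%) and 0 rose, against 10.1% falling and 10.8% rising over all probe sets. The genes that fell were CYP71B24, CYP71B36, CYP71B6 and CYP71B26. The median log2 fold change was -0.27, against -0.03 over all probe sets, and the arrays did not overlap for 10 of the 14 genes, against 48.4% of all probe sets.

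CYP71B24 had 4.40, 4.73 and 4.42 in the double mutant, against 6.14, 6.63 and 6.53 in ga1-3, a log2 fold change of -1.92 ± 0.32 (limma, adjusted p = 0.00137). CYP71B36 had 3.70, 3.67 and 3.62, against 5.10, 5.25 and 6.07 in ga1-3, a log2 fold change of -1.81 ± 0.22 (limma, adjusted p = 0.00023). Both genes were lower in every double-mutant array than in any ga1-3 array, with double-mutant means near background. CYP71B6 had 7.92, 7.74 and 7.93 in the double mutant, against 8.52, 8.61 and 8.50 in ga1-3, a log2 fold change of -0.68 ± 0.10 (limma, adjusted p = 0.000674).

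For CYP71B6 the double mutant differed from the wild type by -0.02 ± 0.10 on the log2 scale, with a 95% confidence interval of -0.24 to 0.20. CYP71B26 had 9.50, 8.98 and 9.58 in the double mutant, against 9.86, 9.86 and 10.19 in ga1-3, a log2 fold change of -0.62 ± 0.17 (limma, adjusted p = 0.0187). This call was lost without ga1-3 replicate 3 (-0.51) or without ga1-3/brm-1 replicate 2 (-0.43), and when only the arrays of these genotypes were fitted (limma, adjusted p = 0.0519). CYP71B34 and CYP71B5 passed the adjusted p but not the fold threshold, with log2 fold changes of 0.55 ± 0.15 and 0.38 ± 0.10 (limma, adjusted p = 0.0161 and 0.0165). CYP71B34 was called, with 0.60, 0.63 and 0.59, without ga1-3 replicate 1, ga1-3 replicate 3 or ga1-3/brm-1 replicate 2. CYP71B29, with a log2 fold change of -0.90 ± 0.34 (limma, adjusted p = 0.0679), was called without brm-1 replicate 1 (limma, adjusted p = 0.00401) and when only double-mutant and ga1-3 arrays were fitted (limma, adjusted p = 0.0178). CYP71B28, with -0.47 ± 0.19 (limma, adjusted p = 0.0758), was called without ga1-3/brm-1 replicate 3 (limma, adjusted p = 0.0224).

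Set against brm-1, the double mutant shows what ga1-3 adds to the loss of BRM. None of the 14 genes passed both thresholds in limma (0 of 14, and 3 at an unadjusted p under 0.05), while over all probe sets 3.78% fell and 4.98% rose. The 3 genes were CYP71B22 with -0.89 ± 0.38, CYP71B26 with 0.52 ± 0.17 and CYP71B34 with 0.41 ± 0.15. Their adjusted p in limma was 0.145, 0.0705 and 0.0902. CYP71B26 was called without ga1-3/brm-1 replicate 2 (0.71) and CYP71B24 without brm-1 replicate 3 (-0.73). The median over the 14 genes was -0.08, against -0.03 over all probe sets.

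The single mutants were also set against each other, a comparison added after the values were seen. Between brm-1 and ga1-3, 4 of the 14 genes were lower in brm-1 (28.6%) and 1 was higher (7.14%), against 7.2% lower and 7.55% higher over all probe sets. CYP71B36 was lower in brm-1, at -2.24 ± 0.22, followed by CYP71B24 at -1.63 ± 0.32, CYP71B26 at -1.14 ± 0.17 and CYP71B6 at -0.77 ± 0.10 on the log2 scale (limma, adjusted p = 9.59e-05, 0.00512, 0.0012 and 0.000485). CYP71B22 was higher in brm-1 by 1.32 ± 0.38 (limma, adjusted p = 0.0309), but the arrays overlapped, and the call was lost without brm-1 replicate 1 or 2 or ga1-3 replicate 1 or 2 (1.12, 1.21, 1.17 and 1.09). CYP71B23 was called only without ga1-3 replicate 2 (0.71) and CYP71B29 only without brm-1 replicate 2 (-1.22).

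The interaction asks whether brm-1 acts differently in ga1-3 plants than in plants that make gibberellin. It passed an adjusted p under 0.05 for 2 of the 14 genes (14.3%), against 8.9% of all probe sets. For CYP78A9 the log2 fold change was -0.32 in ga1-3/brm-1 against ga1-3 and -1.56 in brm-1 against the wild type, an interaction of 1.25 ± 0.19 (limma, adjusted p = 0.00552). All means behind it were near background, that of ga1-3 (2.14) included, and a further fall from such a level may not be measurable, so this interaction does not show that brm-1 acts differently in ga1-3 plants. For CYP71B6 the log2 fold change was -0.68 in ga1-3/brm-1 against ga1-3 and -0.11 in brm-1 against the wild type, an interaction of -0.57 ± 0.14 (limma, adjusted p = 0.0331).

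The interaction of CYP71B6 kept its sign with each array left out, between -0.67 and -0.48, but its adjusted p rose past the threshold in 8 of 12 such fits, namely without any wild-type array, ga1-3 replicate 1 or 2, ga1-3/brm-1 replicate 1 or 2, or brm-1 replicate 1. For CYP71B24 and CYP71B36, which fell in both settings, the interactions were -0.82 ± 0.45 and 0.29 ± 0.31 and did not pass (limma, adjusted p = 0.294 and 0.609). The 95% confidence intervals were -1.82 to 0.18 and -0.39 to 0.96. CYP71B22 had an interaction of 1.504 ± 0.54 (limma, adjusted p = 0.109). It passed without ga1-3 replicate 3 (1.87), and that of CYP71B24 passed without brm-1 replicate 3 (-1.26).

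**Figure D3:**
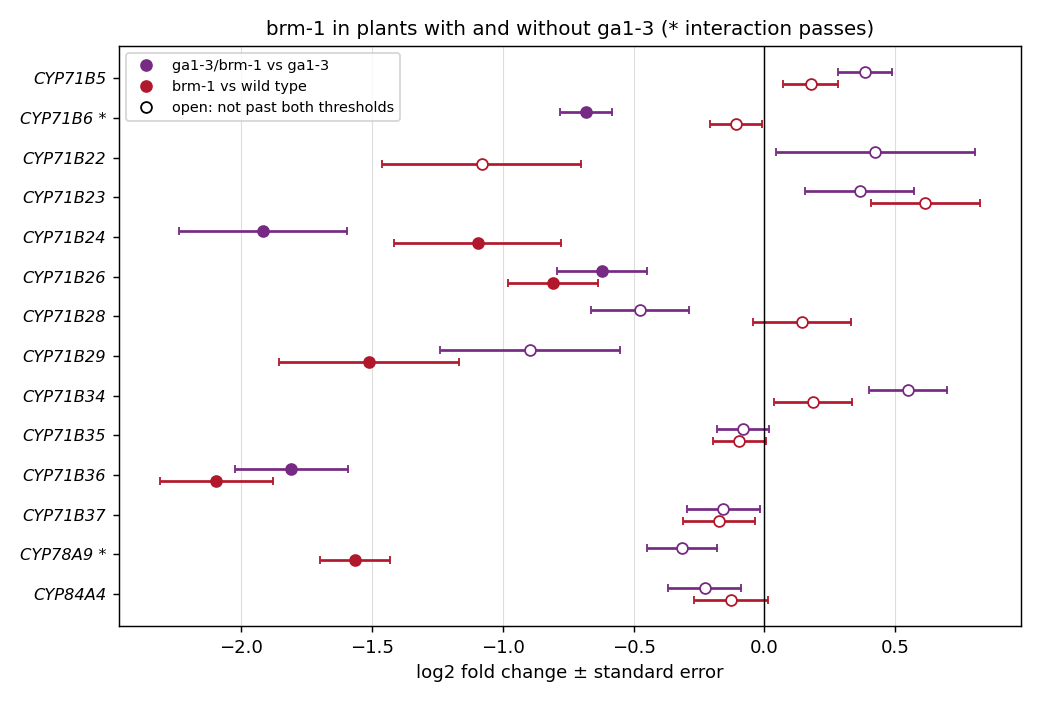
Log2 fold change (horizontal axis, with standard errors) of the 14 P450 genes for ga1-3/brm-1 against ga1-3 (purple, upper point) and brm-1 against wild type (red, lower point), n = 3 arrays per genotype. Filled points passed both thresholds, and a star marks genes whose interaction passed. CYP71B24, CYP71B26 and CYP71B36 are filled and left of 0 in both comparisons.

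The remaining tested genes gave little or no change. CYP71B35 had genotype means between 5.16 and 5.33, and its log2 fold change against the wild type had 95% confidence intervals of -0.32 to 0.13 in brm-1, -0.31 to 0.13 in ga1-3, and for the double mutant -0.39 to 0.05. CYP71B37 and CYP84A4 were near background in all 4 genotypes. CYP84A4 encodes a phenylpropanoid enzyme and had a log2 fold change of -0.36 ± 0.14 in the double mutant (limma, adjusted p = 0.0655). CYP71B28 lay between 7.33 and 7.80 and CYP71B5 between 6.59 and 7.06, and neither passed in any of the 3 mutants against the wild type.

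By genotype mean, the wild type was highest for 6 of the 14 genes, ga1-3 for 5, brm-1 for 2 and ga1-3/brm-1 for 1. The lowest mean was that of brm-1 for 5 genes and of ga1-3/brm-1 for 5, and that of ga1-3 and of the wild type for 2 each. These ranks include neighbours that did not differ beyond their spread.

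The genes of the CYP71B subfamily allowed a comparison of close neighbours. Along chromosome 3, CYP71B22 to CYP71B37 span 15 protein-coding genes in the TAIR10.1 order, of which 11 are P450 genes and 10 are members here. In their order these are CYP71B22, CYP71B23, CYP71B3, CYP71B24, CYP71B4, CYP71B26, CYP71B34, CYP71B35, CYP71B36 and CYP71B37. Platform names cover 8 of them. Among these 8, CYP71B24, CYP71B26 and CYP71B36 fell both in brm-1 against the wild type and in ga1-3/brm-1 against ga1-3, CYP71B22 fell in ga1-3, and CYP71B34 rose in the double mutant.

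Some genes side by side differed in their values. CYP71B36, at -2.09 ± 0.22 on the log2 scale in brm-1 against the wild type, lies between CYP71B35 with -0.10 ± 0.10 and CYP71B37 with -0.17 ± 0.14. CYP71B22, at -2.40 ± 0.38 in ga1-3, is next to CYP71B23 at 0.10 ± 0.21. The sequences of close relatives are alike, and how much signal a probe set takes up from a neighbouring gene was not tested.

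CYP71B3 and CYP71B4 lie within this stretch and were named only through the study's lists. CYP71B4 had 8.50, 8.61 and 8.11 in brm-1, 10.14, 10.15 and 10.30 in ga1-3, 8.49, 8.78 and 8.81 in the double mutant, and 9.93, 9.83 and 9.84 in the wild type. The lines with brm-1 were low on every array and ga1-3 was the highest. CYP71B3 was likewise lower in the lines with brm-1 and highest in ga1-3, with means of 8.12 in brm-1, 9.13 in ga1-3, 7.96 in the double mutant and 8.51 in the wild type. Some neighbours went the same way and others did not. Against the wild type, CYP71B4 had log2 differences of -1.46 in brm-1, 0.33 in ga1-3, and for the double mutant -1.18, and CYP71B26 beside it had -0.81, 0.33 and -0.29 in the same order. CYP71B3 had -0.39, 0.62 and -0.55, and CYP71B24 beside it -1.10, 0.53 and -1.39. CYP71B23, on the other side of CYP71B3, had 0.61, 0.10 and 0.46. CYP71B34, on the other side of CYP71B26, had 0.19, 0.05 and 0.60, and of these values only that of CYP71B34 in the double mutant passed. The values of CYP71B3 and CYP71B4 are given without a test, and those of CYP71B24 and CYP71B26 in ga1-3 and of CYP71B26 in the double mutant did not pass.

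**Figure D4:**
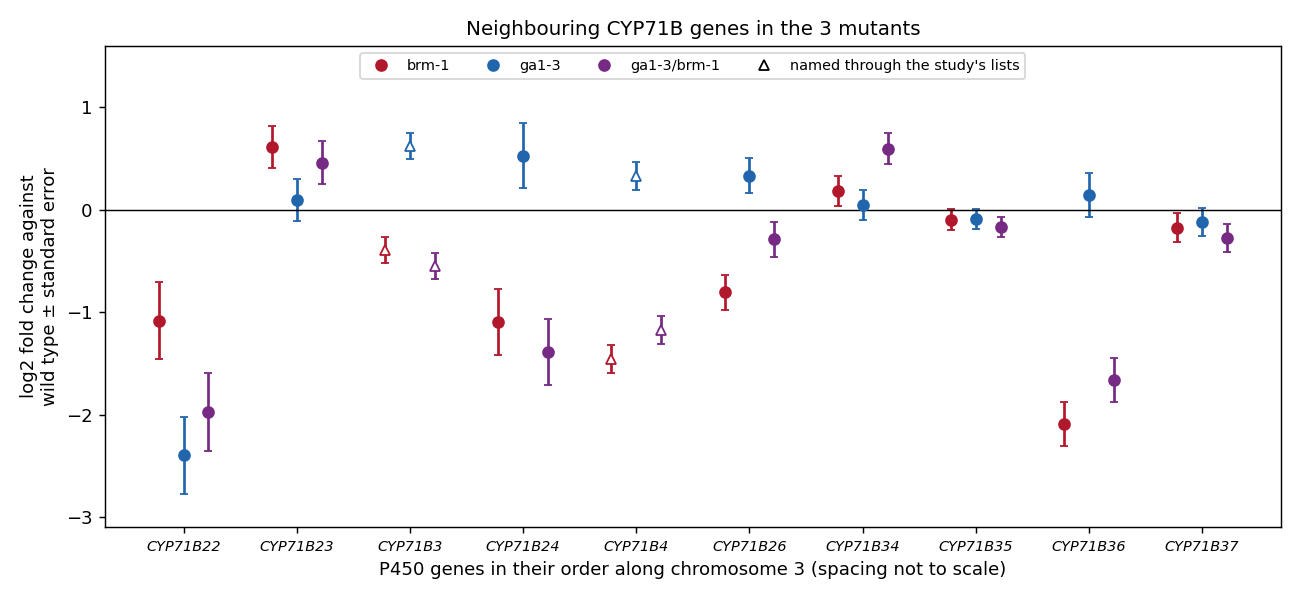
Log2 fold change against the wild type (vertical axis, with standard errors) of 10 P450 genes in their order along chromosome 3, in the 3 mutants, n = 3 arrays per genotype. Circles are genes named by the platform annotation and open triangles are genes named through the study's lists. CYP71B36 lies at -2.09 in brm-1 and -1.66 in the double mutant, between CYP71B35 and CYP71B37, which lie between -0.27 and -0.09 in all 3 mutants.

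On chromosome 1, CYP71B28, CYP71B29 and CYP71B7 are adjacent. CYP71B28 had log2 fold changes of 0.14 ± 0.19 in brm-1, 0.31 ± 0.19 in ga1-3, and for the double mutant -0.16 ± 0.19, none past the test, while CYP71B29 fell in both lines with brm-1. CYP71B7, named through the study's lists, had means of 10.37 in brm-1, 9.97 in ga1-3, 9.98 in the double mutant and 10.95 in the wild type. Unlike CYP71B29, it was lowest in the lines with ga1-3. CYP71B11, on chromosome 5, had 5.69 in brm-1, 4.82 in ga1-3, 5.24 in the double mutant and 4.56 in the wild type, with 1 wild-type array down at 4.001. Its wild-type mean was near background.

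The listed genes of hormone synthesis are described next, as levels without a test. CYP701A3 is ent-kaurene oxidase, which acts downstream of GA1 in gibberellin synthesis. Its signals were 7.64, 7.99 and 7.80 in brm-1, 9.09, 8.92 and 9.19 in ga1-3, 8.80, 8.59 and 8.98 in the double mutant, and 8.94, 8.87 and 8.75 in the wild type. The brm-1 arrays were the lowest, with a log2 fold change of -1.04 ± 0.13 against the wild type, while the double mutant differed from the wild type by -0.06 ± 0.13.

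CYP90A1 and CYP90D1 are enzymes of brassinosteroid synthesis. CYP90A1 averaged 12.01 ± 0.14 in brm-1, 12.60 ± 0.10 in ga1-3, 11.75 ± 0.08 in the double mutant and 12.44 ± 0.15 in the wild type. CYP90D1 averaged 3.77 ± 0.09 in brm-1, 4.88 ± 0.12 in ga1-3, 3.77 ± 0.23 in the double mutant and 5.07 ± 0.19 in the wild type. Both were lower in the lines with brm-1 than in the lines with a functional BRM, and CYP90D1 was near background there.

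Listed genes of sterols, surface lipids and terpenes gave different orders. CYP710A2, a sterol C-22 desaturase, had 7.26, 7.82 and 7.65 in brm-1, 6.16, 5.99 and 5.74 in ga1-3, 7.405, 7.78 and 7.91 in the double mutant, and 6.10, 6.70 and 6.47 in the wild type. Every array of the lines with brm-1 was above every array of the other lines. CYP86A8, a fatty acid hydroxylase of the cuticle, was lowest in the double mutant, with means of 5.05 in brm-1, 5.16 in ga1-3, 4.27 in the double mutant and 5.47 in the wild type. CYP86A8 was near background in the double mutant. By locus number it lies close to BRM on chromosome 2. For this gene the loss of BRM and an effect of the altered locus nearby cannot be told apart.

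CYP706A3, which oxidizes terpenes in flowers, differed in direction between the single mutants. It had 6.45, 6.36 and 5.17 in brm-1, 2.86, 3.23 and 3.404 in ga1-3, 2.89, 2.91 and 3.06 in the double mutant, and 4.38, 4.55 and 4.37 in the wild type. All brm-1 arrays were above the wild type and all arrays of the lines with ga1-3 were below it, and the means of ga1-3, the double mutant and the wild type were near background. Both named flower markers, which were likewise named only through the study's lists and get no test, also had their highest mean in brm-1. PI averaged 6.33 in brm-1, 6.04 in ga1-3, 5.07 in the double mutant and 5.998 in the wild type, so it was lowest in the double mutant, as was CYP706A3. SEP3 averaged 8.26, 5.12, 7.62 and 7.22 in the same order and was lowest in ga1-3. Their part in the result was not tested. Without brm-1 replicate 3 the log2 fold change of CYP706A3 in brm-1 was 1.97, against 1.56 with it. CYP706A4 averaged 5.97 in brm-1, 6.49 in ga1-3, 5.74 in the double mutant and 6.58 in the wild type.

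CYP96A4 was likewise split by the brm-1 allele. It had 4.87, 4.41 and 5.98 in brm-1, 3.18, 2.98 and 3.19 in ga1-3, 5.96, 4.82 and 5.53 in the double mutant, and 3.27, 3.93 and 3.41 in the wild type. The lines with brm-1 were the higher ones, with wide scatter, and the lines with a functional BRM were near background. Its relative CYP96A1 had means of 4.83 in brm-1, 4.47 in ga1-3, 4.73 in the double mutant and 5.45 in the wild type, so the 3 mutants were all on the low side. The ga1-3 mean of CYP96A1 was near background.

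The listed CYP81 genes included 3 adjacent genes of chromosome 4, CYP81H1, CYP81D5 and CYP81D4. CYP81H1 had 4.07, 2.94 and 3.57 in brm-1, 7.0001, 7.14 and 6.64 in ga1-3, 3.95, 4.36 and 4.21 in the double mutant, and 6.004, 6.14 and 6.13 in the wild type. It was near background in the lines with brm-1 and highest in ga1-3. CYP81D5 averaged 3.37 in brm-1, 5.70 in ga1-3, 4.23 in the double mutant and 3.90 in the wild type, and CYP81D4 7.88, 9.02, 7.64 and 8.19 in the same order. Besides CYP81H1, the means of CYP81D5 in all lines but ga1-3 were near background. These 3 neighbours shared their highest level, in ga1-3. GA1 lies on chromosome 4 as well, and the effect of the ga1-3 allele and of donor DNA linked to it cannot be told apart for listed genes there. By locus number these CYP81 genes lie far from GA1, and how far donor DNA extends was not tested. None of the 14 tested genes lies on that chromosome.

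CYP81D1 and CYP89A2 were lowest in brm-1. CYP81D1 averaged 4.81 ± 0.02 in brm-1, 6.56 ± 0.21 in ga1-3, 5.53 ± 0.36 in the double mutant and 7.03 ± 0.33 in the wild type. CYP89A2 averaged 5.78 ± 0.10 in brm-1, 7.28 ± 0.12 in ga1-3, 6.32 ± 0.26 in the double mutant and 7.69 ± 0.13 in the wild type. For both genes the double mutant lay between brm-1 and ga1-3. CYP709B3 averaged 7.20 in brm-1, 7.62 in ga1-3, 6.89 in the double mutant and 7.80 in the wild type.

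The CYP72A genes gave an example of neighbours with opposite differences in the lines with brm-1, while in ga1-3 all 3 were above the wild type. CYP72A7, CYP72A13 and CYP72A15 lie within 9 protein-coding genes of chromosome 3, of which 8 are P450 genes. CYP72A13 had means of 10.07 in brm-1, 9.94 in ga1-3, 10.23 in the double mutant and 9.28 in the wild type, and CYP72A15 had 9.22, 9.26, 9.38 and 8.60 in the same order. Both were higher in all 3 mutants. CYP72A7 had 3.89, 4.72 and 4.69 in brm-1, 6.45, 6.55 and 6.99 in ga1-3, 5.31, 4.50 and 5.26 in the double mutant, and 5.93, 5.39 and 5.78 in the wild type. It was below the wild type in the lines with brm-1 and above it in ga1-3 by its means, and the brm-1 mean was near background.

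**Figure D5:**
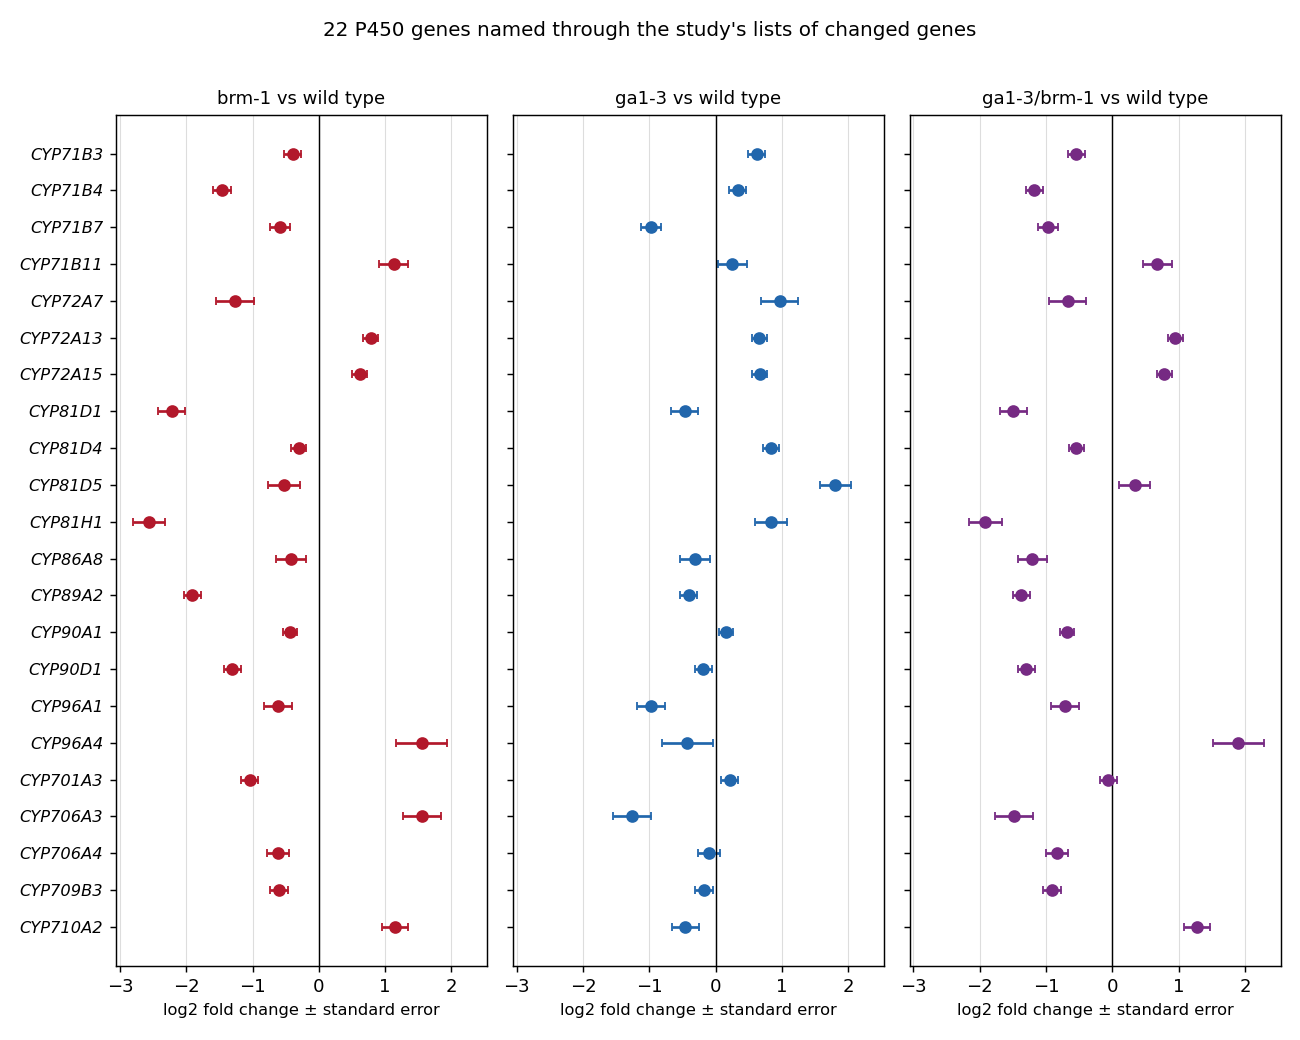
Log2 fold change against the wild type (horizontal axes, with standard errors) of the 22 P450 genes named through the study's lists, in the 3 mutants, n = 3 arrays per genotype. The genes were listed because they had been called changed, so the plot describes their values and holds no test. CYP81H1 lies at -2.56 in brm-1 and 0.84 in ga1-3, and CYP706A3 at 1.56 in brm-1 and -1.26 in ga1-3.

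Genes that work beside the P450 enzymes could hardly be followed. Of 58 such genes (electron donors, and enzymes of glucosinolate, phenylpropanoid, abscisic acid and brassinosteroid pathways) 3 were named by the platform annotation, so no statement on these pathways is possible. UGT74B1, a glucosinolate glucosyltransferase, rose in the double mutant, with a log2 fold change of 0.79 (limma, adjusted p = 0.0227), and did not pass in brm-1 (0.43) or ga1-3 (0.05). BCAT4 and HCT passed in none of the 3 mutants.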

How the data were processed

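RNA from shoots was hybridized to ATH1 arrays. Partek and GCRMA are the tools in the submitters' processing notes. The deposited log2 values are GC-RMA signals, and the authors had kept only probe sets called present in at least 1 replicate of a genotype, which leaves 16824. That filter cannot be undone here. After 60 control probe sets were removed, 16764 remained, and the values were used as given. The platform annotation names 1 gene for 9267 of them and several for 358. Other P450 probe sets were named through the probe set and locus pairs in the study's lists of changed genes, together with the TAIR10.1 gene table, and were not tested.

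A linear model with genotype as the only term was fitted per probe set on all 12 arrays with limma 3.58.1 in R 4.3.3, with eBayes and Benjamini-Hochberg adjustment over all 16764 probe sets. The study's methods give a 2-factor analysis of variance and do not name the second factor. The interaction, which is the effect of brm-1 in ga1-3 plants minus its effect in plants with GA1, was called on the adjusted p alone. The fit was tested on simulated data. The highest correlation between 2 arrays was 0.9949, and no 2 arrays were identical. Same-numbered replicates correlated between -0.198 and 0.119 after removal of genotype means, so replicate numbers were not treated as pairs. No batch is given by the labels.

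Each gene had 1 probe set. The 14 tested genes are all named. The 22 listed genes became members only through the study's lists of changed genes, so their selection rests on their values in these arrays. All of them are named, without a further rule on their values. Members and gene lists were chosen with earlier results of these data known. Alternatives were quantile normalization, each array centred on its median, other variance models, a replicate block, 2 genotypes only, other thresholds, a filter on dim probe sets, and each array left out. No genome or sequence table was used here, so no coordinates or sequences are given. Plots were made in Python 3.11.15 (matplotlib 3.10.9).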

Additional observations from a re-analysis of the deposited data

Results flagged for a closer look

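For 2 of the 14 tested genes the test of the difference between the brm-1 effects with and without ga1-3 passed its threshold, and both have limits. The interaction of CYP78A9 was 1.2483 on the log2 scale (limma, adjusted p = 0.00552), with a clear fall in brm-1 against the wild type and a small difference between ga1-3/brm-1 and ga1-3. The interaction of CYP71B6 was -0.5732 (limma, adjusted p = 0.0331), with a fall in ga1-3/brm-1 against ga1-3 and no call in brm-1 against the wild type. CYP78A9 was near background in all 4 genotypes, and a further fall from the ga1-3 level may not be measurable. CYP71B6 lost its call in 8 of 12 fits with an array left out and with a replicate block.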

How the results depend on the processing

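Over all alternatives and the tested genes, no result changed direction from one called side to the other. In brm-1 against the wild type 5 genes were called, 3 when only the arrays of these 2 genotypes were fitted, 3 at an adjusted p under 0.01, and 4 to 7 with an array left out. In ga1-3/brm-1 against ga1-3 4 genes were called, 2 at a fold change over 2, and 4 to 5 with an array left out. In ga1-3/brm-1 against brm-1 the count was 0, and 0 to 1 with an array left out. The interaction was called for 2 genes, for 1 at an adjusted p under 0.01, for 1 with dim probe sets left out (which removes CYP78A9), and for 1 to 3 with an array left out. With a replicate block the interaction was called for 1 gene, CYP78A9, and that of CYP71B6 had an adjusted p of 0.0542. The replicate block also ended the call of CYP71B22 between brm-1 and ga1-3 (limma, adjusted p = 0.056) and no other. Counts with an array left out were 3 throughout in ga1-3, 5 to 6 in ga1-3/brm-1 against the wild type, and 4 to 5 between brm-1 and ga1-3. For most of these alternatives the share of all probe sets called is not given, so the counts show only whether calls held. Ordinary variance ended the calls of CYP71B24 in brm-1 and of CYP71B22 between brm-1 and ga1-3. The fit of 2 genotypes only ended the calls of CYP71B24 and CYP71B29 in brm-1 (limma, adjusted p = 0.109 and 0.0538), of CYP71B26 in ga1-3/brm-1 against ga1-3 (0.0519) and of CYP71B22 between brm-1 and ga1-3 (0.0782), and CYP71B29 was gained in ga1-3/brm-1 against ga1-3 (0.0178). With dim probe sets left out CYP71B23 was gained in brm-1 (limma, adjusted p = 0.0483). Quantile normalization, centring each array on its median and an intensity trend changed no call of the 14 genes. Of the values of single genes under all alternatives, 1952 stayed on their side of the thresholds, 40 lost a call and 17 gained one. The causes were not tested. With 3 arrays per genotype small changes can be missed, and dim probe sets give uncertain fold changes.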
